A study of Mus musculus with 6 samples.

Results

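The genes described here are 35 known targets and partners of ATF4, the transcription factor that drives the supply of amino acids, serine and folate units in stressed or fast-growing cells. They were listed by symbol and split by role into 11 regulators, 7 amino acid transporters, 12 biosynthesis enzymes and 5 other targets. Of the 35, 34 had a probe set that the platform annotation pairs with that symbol alone, among 18193 such genes on the array, and each is represented by its brightest probe set over the 6 arrays. Signals of 31 lay high enough to be tested among 10916 genes. Atf3, Chac1 and Vldlr were too dim, with mean signals of 16.7, 42.1 and 25.1 against a limit of about 47, and Pycr1 was not analysed here.

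The RNA was that of Ba/F3, an interleukin 3-dependent pro-B line of the mouse, carrying a doxycycline-inducible construct (Retro-X Tet-on Advanced) for NCOR1-LYN, a fusion of parts of the nuclear corepressor NCOR1 and of the tyrosine kinase LYN. The control group (DOX(-), 3 arrays) held uninduced cells, and the NCOR1-LYN group (DOX(+), 3 arrays) held cells of the same kind given doxycycline to switch the fusion on. Dose and duration of doxycycline are not given in the sources used here. The drug was given to every NCOR1-LYN culture and to no control culture, so drug and fusion cannot be told apart, and the fusion itself was not followed on the arrays. The labels speak of triplicate cultures and do not say whether these were separate inductions, so a p-value here covers array-to-array spread, which may be technical. The comparison asks which pathways changed when the fusion was induced.

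Signals are MAS5 probe set intensities, scaled so that every array has a trimmed mean of 500. Array medians ran from 54.8 to 61.9, and precision is limited by having 3 arrays a group. The first replicate of each group stands apart from replicates 2 and 3 across the arrays as a whole, so the results are also given by same-numbered pair, and for the main ones without replicate 1. The beta-actin 3′/5′ ratio, a measure of RNA integrity, was 1.17 and 1.15 in control 1 and NCOR1-LYN 1 and 1.19 to 1.24 in the other arrays. For Gapdh it was 0.69 and 0.68 against 0.70 to 0.74. Among markers of the labelled cell type, the interleukin 3 receptor genes Il3ra and Csf2rb and the leukocyte marker Ptprc were above the limit. The B lineage genes Cd79b, Pax5 and Igll1 were above it on average. Pax5 and Igll1 fell below it in single arrays, with signals from 7.65 to 125 and from 13.9 to 179. Cd79a, Ebf1, Vpreb1, Il7r, Rag1 and Cd24a were below it on average. Of 8 myeloid markers, the neutrophil granule genes Ngp and Ltf stood higher in every NCOR1-LYN array, and these carried most of a summed signal from 908 to 1781 in controls and from 5720 to 5973 with NCOR1-LYN. Csf1r and Csf3r did not share this, with log2 fold changes of −0.04 and −0.14. Of 5 mast cell markers, summing to 366 to 866 in controls and 186 to 296 with NCOR1-LYN, Cma1 carried most of the difference, and 3 lay below the limit. The part of these genes in the results below was not tested.

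ATF4 is made when the initiation factor eIF2 is phosphorylated on its alpha subunit, by kinases that sense missing amino acids, haem loss, double-stranded RNA or unfolded proteins. General translation then slows while the Atf4 message is read more. With partners such as CEBPG and CEBPB, ATF4 binds the C/EBP-ATF response element and switches on genes that import amino acids, build asparagine, serine, glycine and proline, and feed folate units into nucleotide synthesis. Growth signals through mTORC1 raise ATF4 as well, so that proliferating cells often express these enzymes without overt stress. In prolonged stress DDIT3, ATF3 and TRIB3 join in and curb the response or favour cell death.

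The core of that element was searched for in the promoters because the list is defined by ATF4. The search used TGATGNAA on the gene's strand and TTNCATCA for the opposite strand, in RefSeq windows (GRCm38.p6) from 250 bases before to 50 bases after each start. A match was present for 9 of the 32 members with a window (28.1%) and for 1219 of 27025 genes in the table (4.51%). Slc7a5, Eif4ebp1 and Cth had no entry. The last 150 bases before the start are shown for Asns, Nupr1 and Slc7a11, a biosynthesis enzyme, a regulator and a transporter with matches and with marked differences between arrays. All 3 genes lie on the minus strand, the sequences run 5′ to 3′ along the gene, and capitals mark the matches.
Asns, chr6:7693210-7693359: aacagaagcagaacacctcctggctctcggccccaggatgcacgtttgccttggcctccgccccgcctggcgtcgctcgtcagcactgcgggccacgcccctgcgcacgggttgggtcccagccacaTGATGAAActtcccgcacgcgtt
Nupr1, chr7:126625471-126625620: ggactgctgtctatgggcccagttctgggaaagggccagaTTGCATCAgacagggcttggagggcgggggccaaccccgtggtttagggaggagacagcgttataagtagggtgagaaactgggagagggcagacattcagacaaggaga
Slc7a11, chr3:50443614-50443763: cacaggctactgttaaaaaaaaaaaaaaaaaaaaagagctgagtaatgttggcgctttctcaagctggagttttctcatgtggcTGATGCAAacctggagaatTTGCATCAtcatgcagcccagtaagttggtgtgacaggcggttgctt

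Slc7a11 holds 2 matches, in opposite orientations, whose first bases lie at −66 and −47 from the start. The matches begin at −23 in Asns and at −110 in Nupr1. Stretches of 30 bases around the matches of Trib3, Slc1a4 and Chac1 give further examples of the motif in a regulator, a transporter and a glutathione-degrading enzyme. Chac1 lies on the plus strand and the other 2 on the minus strand.
Trib3, chr2:152344028-152344057: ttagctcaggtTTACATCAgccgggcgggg
Slc1a4, chr11:20332699-20332728: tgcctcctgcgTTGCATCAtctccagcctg
Chac1, chr2:119351038-119351067: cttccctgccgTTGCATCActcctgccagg

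The remaining matches were in Atf3, Vldlr and Pycr1. A match is a description of letters and not a site of binding, and ATF4 binding was not measured here.

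With all 6 arrays, 0 of the 31 tested members passed an adjusted p of 0.05 in limma, against 0.0824% of all genes tested. Their adjusted p was 0.999 throughout, and 0 had an unadjusted p under 0.05, against 4.75% of all genes. With the replicate number as a block, limma again called 0 members, against 0.824% of all genes, while 4 members (Mthfd2, Slc1a4, Ddit4 and Gpt2) had an unadjusted p under 0.05, against 11.3%. The median log2 fold change of the members tested, NCOR1-LYN minus control, was 0.14, beside −0.01 over all genes tested. All fold changes are differences of log2(signal + 64), which understates those of dim genes. Without control 1 the members' median was −0.07, and limma called 0 of them (0.137% of all genes), with 0 under an unadjusted p of 0.05 (6.8%). Without both replicate 1 arrays their median was −0.10. In bulk RNA, a lower level in fewer cells and less RNA in every cell cannot be told apart.

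Split by pair, the members stood higher with NCOR1-LYN in replicate 1 and about level in replicates 2 and 3. The median log2 change was 0.69 in pair 1, −0.01 in pair 2 and −0.06 in pair 3, beside −0.03, −0.02 and 0.01 over all genes tested. In pair 1, 26 of 31 members were higher (46.4% of all genes), 9 were at least 2-fold higher (1.01% of all genes) and 0 at least 2-fold lower (1.47%). These 9 were the regulators Nupr1, Trib3, Ddit3, Cebpg and Atf5, the transporter Slc7a11, the enzymes Mthfd2 and Gpt2, and the protease gene Lonp1. In pairs 2 and 3, 14 and 12 members were higher (47.1 and 51.5% of all genes). In those pairs 0 members were at least 2-fold higher (0.623 and 0.559% of all genes) and 0 at least 2-fold lower (0.687 and 0.595%). Each pair is 1 array against 1 array, so a change within a pair carries no test.

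**Figure D1:**
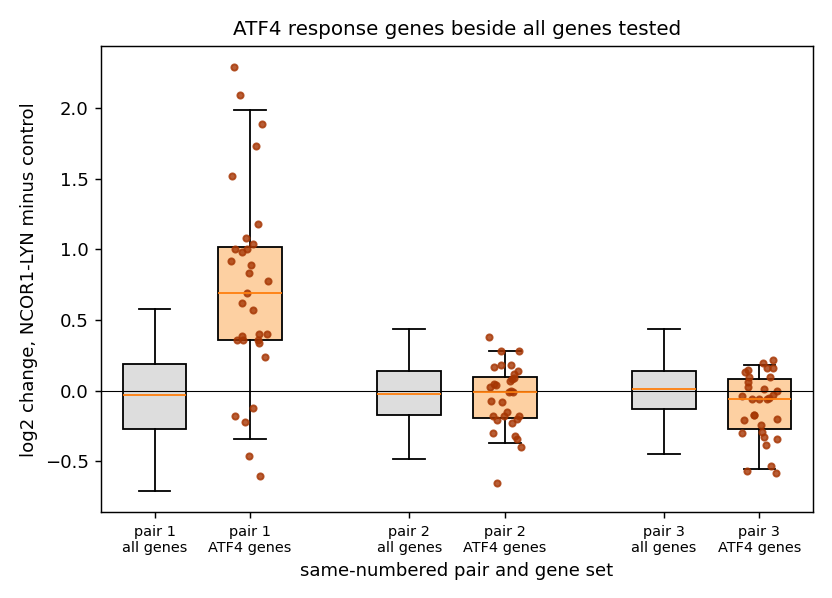
Log2(signal + 64) of NCOR1-LYN minus control (y axis) in each same-numbered pair (x axis) for all 10916 genes tested (grey) and the 31 ATF4 genes tested (orange, points are genes). Boxes span the 25th to 75th percentile with the median as a line and whiskers at the 5th and 95th percentiles; the ATF4 genes have a median of 0.69 in pair 1 and of −0.01 and −0.06 in pairs 2 and 3.

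The pair 1 difference came with a low control 1 array. Control 1 had the lowest signal of all 6 arrays for 23 of the 31 members, against 22.8% of all genes tested, and lay below both other controls for 25 (39.3% of all genes). The members' median difference between control 1 and the mean of controls 2 and 3 was −0.63 on the log2 scale, beside 0.05 over all genes. In the NCOR1-LYN group the same difference for replicate 1 had a median of 0.02, beside 0.03 over all genes. Single genes departed from that median both ways: NCOR1-LYN 1 lay above both of its replicates for 15 members (44.8% of all genes) and below both for 15 (40% of all genes). It was the lowest of the 6 arrays for 4 members, Psph, Cth, Cbs and Stc2 (21.1% of all genes). Of the 21 members with a second probe set above the limit, 20 had the same sign in pair 1 in it, and 16 were lowest in control 1 in both probe sets. The exception in sign was Ddit3, whose much dimmer second probe set had pair changes of −0.21, −0.69 and 0.10. Probe sets of a gene share their arrays and are no replicates. Of the 5 tested members with a promoter match (Asns, Nupr1, Slc7a11, Trib3 and Slc1a4), 5 were lowest in control 1, and of the other 26, 18 were. Those 26 include Slc7a5, Eif4ebp1 and Cth, which had no promoter entry and may hold a match. Whether a match goes with a low control 1 was not tested.

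**Figure D2:**
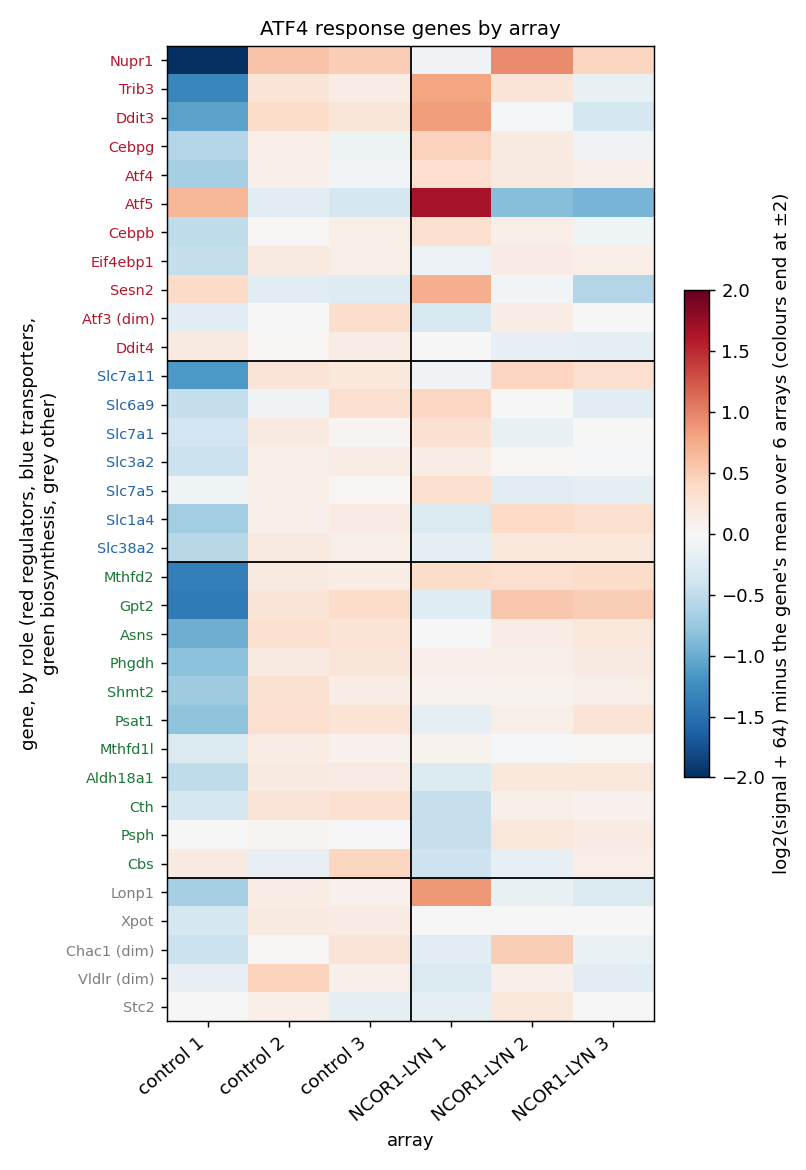
Each row is a gene, grouped by role, each column an array, and the colour is log2(signal + 64) minus the gene's mean over the 6 arrays, with colours ending at ±2. The control 1 column is low for most rows, with Atf5, Sesn2, Ddit4, Cbs, Psph, Stc2, Slc7a5 and Cth as the tested genes where it was not the lowest; rows marked dim were not tested.

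**Figure D3:**
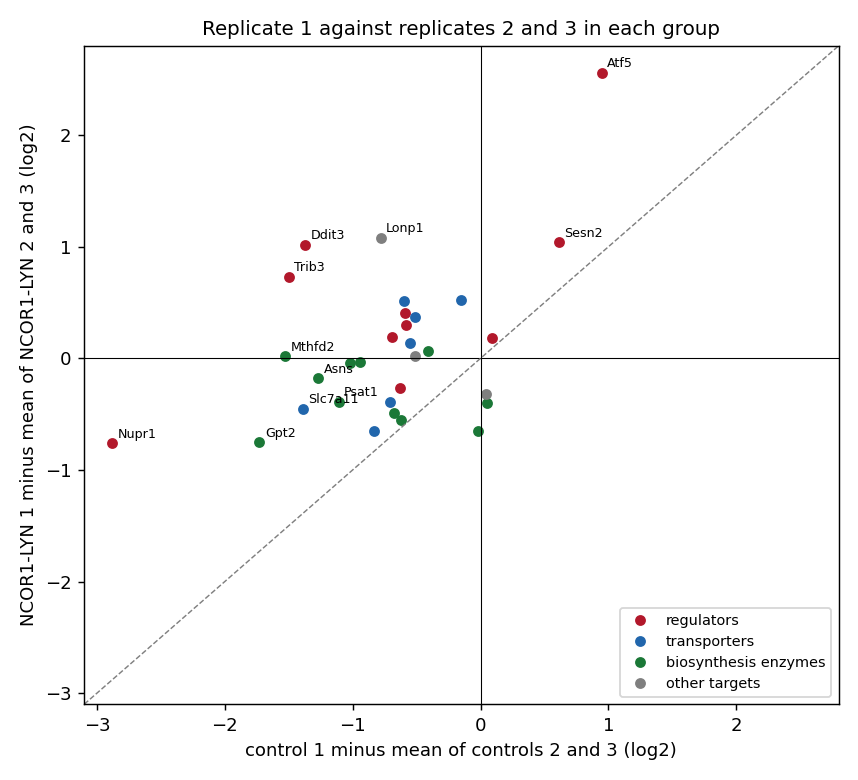
For each of the 31 genes tested, control 1 minus the mean of controls 2 and 3 (x axis) and NCOR1-LYN 1 minus the mean of NCOR1-LYN 2 and 3 (y axis), both in log2(signal + 64), coloured by role. Points above the dashed line of equality are higher with NCOR1-LYN in pair 1 relative to the other pairs; Nupr1 is farthest left at −2.88 and Atf5 highest at 2.56.

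Among the regulators, Atf4 itself had signals of 7724, 13208 and 11868 in control replicates 1, 2 and 3 and of 15475, 13853 and 13251 with NCOR1-LYN. All NCOR1-LYN arrays lay above all controls, by a small margin apart from control 1. Control arrays averaged 10933 ± 2859 and NCOR1-LYN arrays 14193 ± 1150 (SD, n = 3). In limma the log2 fold change was 0.41 with an SE of 0.21 (adjusted p = 0.999, and 0.464 with the replicate block). By pair the change was 1.0, 0.07 and 0.16, the first just short of the 2-fold limit, and without control 1 the fold change was 0.18. A second Atf4 probe set had pair changes of 1.28, 0.34 and −0.15, so the lack of overlap did not hold in it. ATF4 protein is set largely by translation, and these values concern its message only. In the brightest probe sets, groups failed to overlap for 3 of the 31 members, against 11.2% of all genes. These were Atf4 and Mthfd2 (higher, 5.17% of all genes) and Ddit4 (lower, 6.06%).

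Ddit3, which encodes the stress factor CHOP, had signals of 945, 2667 and 2417 in controls and 3682, 2003 and 1595 with NCOR1-LYN. The replicate 1 arrays were the lowest and the highest of the 6. The log2 fold change was 0.30 ± 0.44 with pair changes of 1.89, −0.40 and −0.58, and it turned to −0.15 without control 1. Trib3, the pseudokinase gene that feeds back on ATF4, had signals of 1321, 4029 and 3706 in controls and 5824, 4019 and 3010 with NCOR1-LYN. It followed the same pattern of arrays, with pair changes of 2.09, 0.00 and −0.29. Over all arrays its log2 fold change was 0.60 ± 0.43 (SE), and 0.10 without control 1. In pair 1, 15 of the 10916 genes tested stood higher with NCOR1-LYN by more than Ddit3, and 12 by more than Trib3, genes that were lower not counted.

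Nupr1, a small stress-induced chromatin protein gene, had the largest pair 1 change of the members. Its signals were 255, 2347 and 2221 in controls and 1491, 3070 and 2137 with NCOR1-LYN. Both replicate 1 arrays were the lowest of their group, and control 1 by a wide margin. Pair changes were 2.29, 0.38 and −0.05, with 6 of the genes tested higher by more in pair 1. The log2 fold change over all arrays was 0.87 ± 0.75 (SE, limma adjusted p = 0.999), and −0.09 without control 1. Its second probe set had pair changes of 2.07, 0.29 and −0.13.

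Atf5, a close relative of ATF4 linked to the mitochondrial stress response, ran the other way in controls. Its signals were 3547, 1901 and 1710 in controls and 7165, 1192 and 1131 with NCOR1-LYN, so replicate 1 was the highest of both groups. Pair changes were 1.0, −0.65 and −0.57. NCOR1-LYN 1 lay 2.56 above its replicates on the log2 scale and control 1 lay 0.95 above its own. Over all arrays the log2 fold change was −0.07 ± 0.68 (SE), and it turned to 0.25 without control 1. Sesn2, which restrains mTORC1 when leucine is short, was likewise highest in replicate 1 of both groups, with 1636, 1063 and 1036 in controls and 2094, 1201 and 809 with NCOR1-LYN. A second Sesn2 probe set was highest in NCOR1-LYN 1 only, with 741, 618 and 981 in controls and 1473, 581 and 653 with NCOR1-LYN. In the only probe set of Atf5 and the brighter one of Sesn2 control 1 was thus high. It was low in the brightest probe sets of Ddit3, Trib3 and Nupr1. In the much dimmer second probe set of Ddit3 control 1 was the highest array, at 204.

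Cebpg, the gene of a dimer partner of ATF4, had signals of 2151, 3551 and 3018 in controls and 4476, 3673 and 3076 with NCOR1-LYN. The control 1 value was the lowest and the NCOR1-LYN 1 value the highest, and pairs 2 and 3 were level, with pair changes of 1.04, 0.05 and 0.03 and a log2 fold change of 0.37 ± 0.22 (SE). In a second Cebpg probe set control 1 was close to the other controls, with 1098, 1140 and 1175. Its pair changes were 0.93, 0.23 and −0.23. The related gene Cebpb, another partner, had pair changes of 0.83, 0.12 and −0.20. Eif4ebp1, which encodes a brake on translation, had 0.36, −0.01 and 0.01. Ddit4, an inhibitor of mTORC1 that also answers to hypoxia and glucocorticoids, stood apart from the other regulators. Its signals were 4436, 4018 and 4326 in controls and 3919, 3495 and 3414 with NCOR1-LYN, lower in all 3 pairs (−0.18, −0.20 and −0.34). The groups did not overlap, and the log2 fold change was −0.24 ± 0.11 (limma adjusted p = 0.999, and 0.387 with the replicate block). Atf3 was dim in every array, between 0.864 and 38.0.

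The 10 tested regulators had median pair changes of 1.0, 0.02 and −0.25 in pairs 1, 2 and 3. NCOR1-LYN 1 was the highest of the 6 arrays for 7 of them, and 11 of all 31 members, against 21% of all genes tested.

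**Figure D4:**
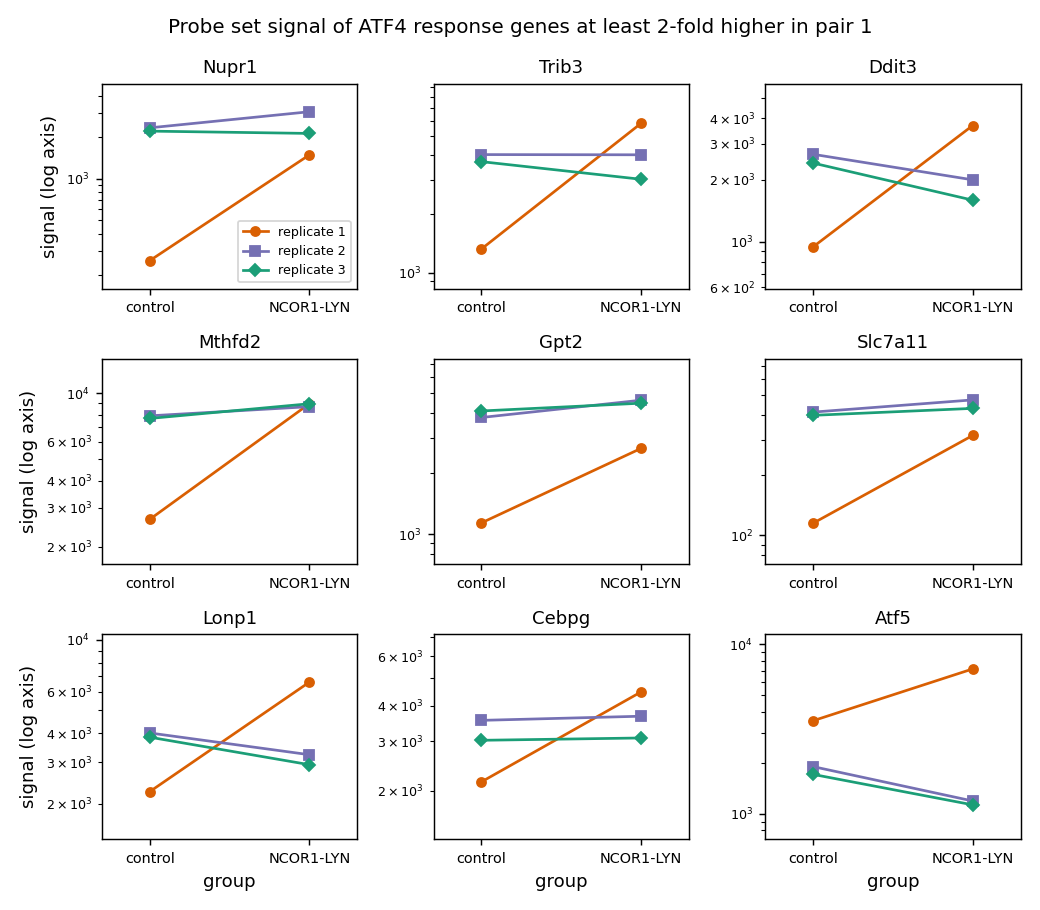
Probe set signals (log axis) in control and NCOR1-LYN arrays for the 9 genes at least 2-fold higher in pair 1, with lines joining arrays of the same replicate number. The changes of replicates 2 and 3 lie between −0.65 and 0.38, while replicate 1 starts low in every gene but Atf5 and ends at, above or below the other NCOR1-LYN arrays.

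In all 7 amino acid transporters control 1 lay below both other controls (39.3% of all genes), and in 6 it was the lowest of the 6 arrays (22.8%). Their median pair 1 change of 0.57 was smaller than that of the regulators, 1.0. Slc7a11, the light chain of the cystine and glutamate exchanger, had signals of 115, 412 and 397 in controls and 315, 474 and 430 with NCOR1-LYN. Replicate 1 was the lowest of both groups, and pairs 2 and 3 differed little, with pair changes of 1.08, 0.18 and 0.10. The log2 fold change was 0.45 ± 0.38 (limma adjusted p = 0.999, and 0.477 with the replicate block), and −0.01 without control 1. A dimmer second probe set had signals of 80, 144 and 180 in controls and 218, 261 and 213 with NCOR1-LYN. Its pair changes were 0.97, 0.64 and 0.18. In it the groups did not overlap, while in the brightest probe set they did. Over all genes, 5.17% were higher without overlap in their brightest probe sets.

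Slc3a2 encodes the heavy chain that Slc7a11 and Slc7a5 share, and its signals were 5918, 8624 and 8806 in controls and 8800, 8162 and 7839 with NCOR1-LYN. Slc7a5, the carrier of large neutral amino acids, had 6521, 7445 and 7064 in controls and 8646, 5955 and 6089 with NCOR1-LYN. For Slc7a5 both pairs outside replicate 1 were lower, with changes of −0.32 and −0.21 after 0.40 in pair 1. Slc7a1, the carrier of arginine and lysine, had pair changes of 0.69, −0.34 and −0.04, and Slc6a9, a glycine transporter, 0.89, 0.08 and −0.53.

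Slc1a4 and Slc38a2, which carry small neutral amino acids, were higher in all 3 pairs in their brightest probe sets. Slc1a4 had signals of 406, 757 and 793 in controls and 558, 935 and 888 with NCOR1-LYN, with pair changes of 0.40, 0.28 and 0.15. Its log2 fold change was 0.28 with an SE of 0.29 in limma, or 0.11 with the replicate block (adjusted p = 0.999 and 0.406), and 0.00 without control 1. Slc38a2 had pair changes of 0.39, 0.03 and 0.10. All 7 transporters were higher in pair 1, while 4 were higher in pair 2 and 3 in pair 3, with medians of 0.57, 0.03 and −0.04.

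**Figure D5:**
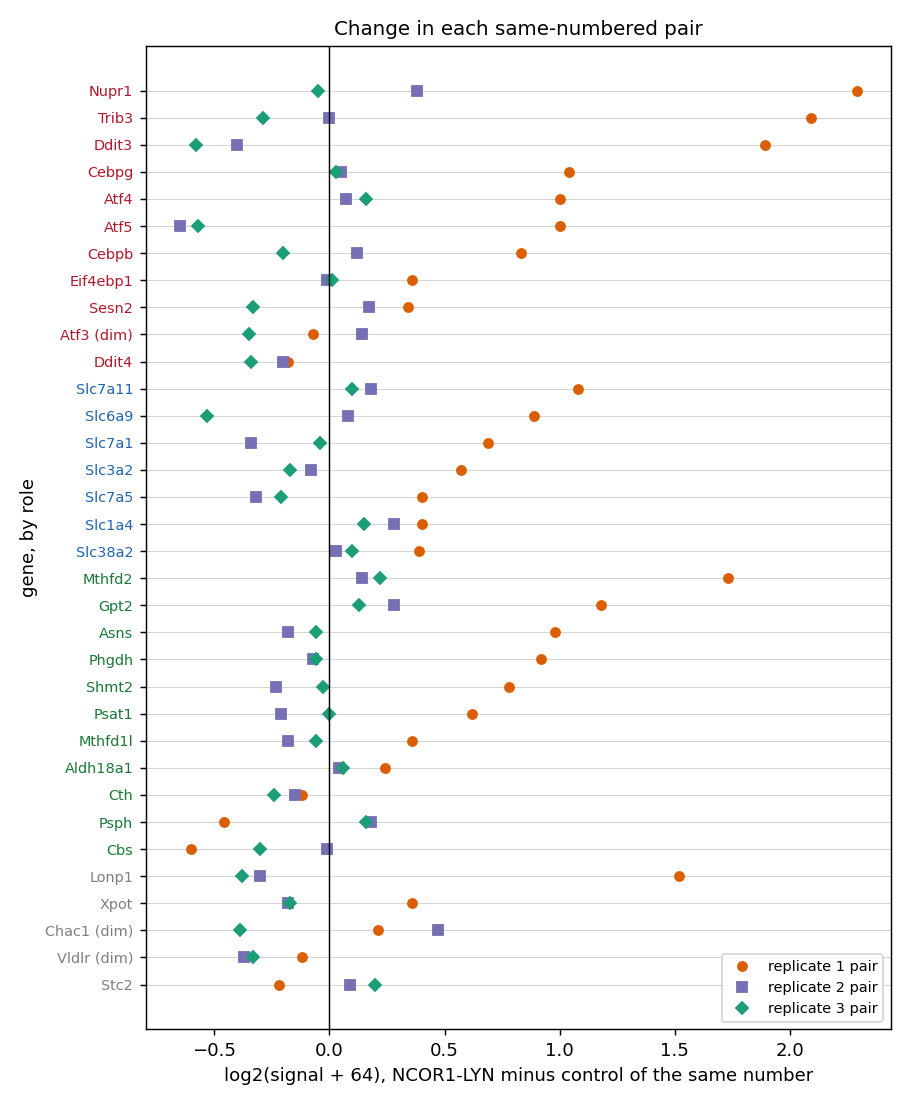
Log2(signal + 64) of NCOR1-LYN minus control (x axis) in the replicate 1 (circles), 2 (squares) and 3 (diamonds) pairs for each gene (y axis, by role). Circles lie right of the other symbols for most genes, from −0.60 for Cbs to 2.29 for Nupr1, while squares and diamonds of the genes tested stay between −0.65 and 0.38.

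Among the 11 biosynthesis enzymes measured, control 1 was the lowest of the 6 arrays for 8, and NCOR1-LYN 1 lay below both of its replicates for 9, by a median of −0.39 on the log2 scale. Asns, asparagine synthetase, had signals of 5416, 13367 and 12993 in controls and 10753, 11824 and 12503 with NCOR1-LYN. Control 1 alone was far from the rest, and the pair changes were 0.98, −0.18 and −0.06. The log2 fold change was 0.25 ± 0.33 over all arrays (limma adjusted p = 0.999) and −0.17 without control 1. A second probe set of Asns gave pair changes of 0.92, −0.18 and −0.13.

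In the first steps of serine synthesis control 1 was again the lowest array. Phgdh, which opens the pathway from glycolysis, had signals of 8532, 17093 and 17762 in controls and 16153, 16264 and 17066 with NCOR1-LYN. Psat1, the next enzyme, had 7206, 15898 and 15331 in controls and 11109, 13752 and 15345 with NCOR1-LYN. For Psat1 the NCOR1-LYN 1 array was low as well, and more so in its second probe set, with 6397 against 11664 and 10268. In pair 1 the changes were 0.92 and 0.62, and in pairs 2 and 3 they lay between −0.21 and 0.00. Psat1 had a log2 fold change of 0.14 ± 0.31 (SE), and −0.23 without control 1. Further Phgdh probe sets that the annotation also assigns to predicted gene copies were not used, and RNA of such copies may enter its signal. Psph, which completes serine, did not follow, with signals of 283, 293 and 281 in controls and 188, 342 and 321 with NCOR1-LYN, so that its low array was NCOR1-LYN 1.

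Mthfd2, the mitochondrial folate dehydrogenase, had the most marked change of the enzymes. Its signals were 2662, 7890 and 7676 in controls and 8950, 8686 and 8955 with NCOR1-LYN. Every NCOR1-LYN array lay above every control, and the changes were 1.73, 0.14 and 0.22 by pair, with 22 of the genes tested higher by more in pair 1. The means were 6076 ± 2959 and 8864 ± 154 (SD, n = 3), and the log2 fold change was 0.69 with an SE of 0.39 in limma, or 0.29 with the replicate block (adjusted p = 0.999 and 0.439). It was 0.19 ± 0.09 without control 1 (limma adjusted p = 0.824). A second probe set had the same sign in every pair, with 1.85, 0.14 and 0.26. In it NCOR1-LYN 1, at 5172, lay below controls 2 and 3, at 5427 and 5401, so the lack of overlap did not hold. Shmt2, which passes serine's carbon to folate in mitochondria, had pair changes of 0.78, −0.23 and −0.03, and Mthfd1l, the next mitochondrial step after Mthfd2, 0.36, −0.18 and −0.06.

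Gpt2, the mitochondrial alanine transaminase, was higher in all 3 pairs. Its signals were 1138, 3784 and 4076 in controls and 2659, 4608 and 4454 with NCOR1-LYN. Replicate 1 was the lowest of both groups, and the pair changes were 1.18, 0.28 and 0.13. The log2 fold change was 0.53 ± 0.48 (limma adjusted p = 0.999), with an unadjusted p of 0.0322 and an adjusted p of 0.380 with the replicate block. Without control 1 it was −0.05. Aldh18a1, which starts proline synthesis, had small positive changes of 0.24, 0.04 and 0.06 in its brightest probe set.

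The transsulfuration genes Cth and Cbs were lower in all 3 pairs in their brightest probe sets, as were 18.9% of all genes. Cth, which makes cysteine from cystathionine, had signals of 563, 883 and 920 in controls and 512, 790 and 771 with NCOR1-LYN, lower in all 3 pairs (−0.12, −0.15 and −0.24). Replicate 1 was the lowest of both groups. Cbs, the step before it, lay near the limit, with signals between 20.1 and 87.4 over the 6 arrays and pair changes of −0.60, −0.01 and −0.30. A second Cbs probe set, below the limit, was higher in pair 2 (0.34) and lower in pair 3 (−0.14). Neither Cth nor Cbs passed limma (adjusted p = 0.999, or 0.603 and 0.599 with the replicate block). The 11 measured enzymes had medians of 0.62, −0.07 and −0.03 in pairs 1, 2 and 3, and NCOR1-LYN 1 was the highest array for 0 of them.

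Of the other targets, Lonp1, the mitochondrial matrix protease, had signals of 2251, 4005 and 3842 in controls and 6596, 3235 and 2933 with NCOR1-LYN. Like Ddit3 it had its lowest value in control 1 and its highest in NCOR1-LYN 1, with pair changes of 1.52, −0.30 and −0.38 and a log2 fold change of 0.28 ± 0.35 (SE). Xpot, which exports transfer RNA from the nucleus, had 6023, 8693 and 8568 in controls and 7734, 7664 and 7630 with NCOR1-LYN. The low control 1 did not hold in its next brightest probe sets, with mean signals of 4849 and 4653. There control 1 was the highest control, at 5484 and 4940, and NCOR1-LYN 1 the highest array, at 6931 and 6283. The secreted glycoprotein gene Stc2 stayed near the limit, between 38.1 and 73.5. Chac1, which degrades glutathione, and the lipoprotein receptor gene Vldlr were dimmer than the limit on average, with Chac1 between 13.4 and 81.8.

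Replicates 2 and 3 were also taken on their own, since they are the pairs without the low control 1. In those pairs 15 of 31 members were lower in both (31.5% of all genes) and 10 higher in both (30% of all genes). With both replicate 1 arrays left out, limma called 5 members, all lower with NCOR1-LYN, against 6.78% of all genes in either direction, 3.16% higher and 3.62% lower. The 5 were Atf5 (−0.61, adjusted p = 0.0015), Ddit3 (−0.49, adjusted p = 0.0202), Lonp1 (−0.34, adjusted p = 0.0168), Ddit4 (−0.27, adjusted p = 0.0385) and Slc7a5 (−0.27, adjusted p = 0.0298), all with limma's Benjamini-Hochberg adjustment. An unadjusted p under 0.05 was reached by 11 members (19.6% of all genes), 3 higher and 8 lower. That fit rests on 2 arrays a group, so its spread is that between close arrays. Of the 5 called, Ddit4 alone was lower in pair 1 as well, while Ddit3 and Lonp1 had pair 1 changes of 1.89 and 1.52 in the opposite direction. Atf4, Mthfd2, Gpt2, Slc7a11, Slc1a4, Slc38a2, Aldh18a1 and Cebpg were higher in all 3 pairs, 8 of 31 members against 15.9% of all genes, and Ddit4, Cth and Cbs lower in all 3, against 18.9%. None of the 8 passed with or without the block, and without replicate 1 their adjusted p in limma ran from 0.109 (Gpt2) to 0.884 (Cebpg). These signs are those of the brightest probe sets. In further probe sets above the limit all 3 pairs stayed higher for Mthfd2, Gpt2 and Slc7a11. Atf4, Slc1a4, Slc38a2, Aldh18a1 and Cebpg each had a further probe set that was lower in pair 2, pair 3 or both.

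For other genes of the pathway, control 1 was the lowest array for 1 of 14, 5 of 15 and 2 of 15 tested genes. These are the lists that follow, in order, and the share over all genes tested was 22.8%. The counts were not tested against the members'. The genes of the eIF2 alpha kinases, their regulators, the eIF2 phosphatase subunits and eIF2B had a median log2 fold change of 0.04 over 14 genes tested, and of 0.06, 0.00 and −0.10 by pair. Of them 0 passed in limma without or with the block (0.0824 and 0.824% of all genes). Without both replicate 1 arrays 2 passed, against 6.78% of all genes. These were Eif2ak4, the gene of GCN2 (higher, 0.46, limma adjusted p = 0.026), and Impact (lower, −0.52, limma adjusted p = 0.0322). Impact, which restrains the amino acid sensor GCN2, had signals of 1141, 544 and 490 in controls and 922, 314 and 371 with NCOR1-LYN, lower in all 3 pairs. Its log2 fold change was −0.44 ± 0.43 (SE, limma adjusted p = 0.999, and 0.238 with the block). Gcn1, which activates GCN2, had 313, 263 and 248 in controls and 630, 281 and 262 with NCOR1-LYN. NCOR1-LYN 1 alone stood out, with pair changes of 0.88, 0.07 and 0.06.

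Folate and methionine cycle genes outside the list had a median of 0.00 over 15 genes tested, and of 0.13, −0.04 and −0.02 by pair. Again 0 passed in limma without or with the block (0.0824 and 0.824% of all genes). Without both replicate 1 arrays 1 did, against 6.78% of all genes. It was Shmt1, the cytosolic counterpart of Shmt2 (lower, −0.36, limma adjusted p = 0.0242). Ahcy, which hydrolyses S-adenosylhomocysteine, had signals of 4584, 11401 and 11258 in controls and 6444, 10168 and 11092 with NCOR1-LYN, so that both replicate 1 arrays were low. It was chosen after its values were seen. Tyms, thymidylate synthase, was higher in all 3 pairs by 0.39 to 0.43, with a log2 fold change of 0.41 ± 0.15 (limma adjusted p = 0.929, and 0.272 with the block). Mtr, methionine synthase, had pair changes of 0.49, 0.13 and 0.17 and a log2 fold change of 0.26 ± 0.14 (limma adjusted p = 0.999). Other amino acid transporters gave 15 tested genes with a median of −0.11. Limma called 0 of them without the block, with it, or without both replicate 1 arrays (0.0824, 0.824 and 6.78% of all genes). The largest changes were those of Slc36a1, a lysosomal carrier (−0.43), and Slc6a6, the taurine transporter (−0.42), both lower in all 3 pairs. In this list control 1 was the highest array for 8 of 15 genes, and among the members for 1 of 31, Ddit4. Over all genes tested it was the highest for 3358 of 10916.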

How the data were processed

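Per the submitters' processing notes, the authors made the deposited intensity values with MAS5 (its version is not given in the sources used here), which summarises a probe set after background and mismatch correction, so dim signals are noisy. The values show a trimmed mean of 500 per array (2% trimmed at each end). No further scaling was applied. Of 45101 probe sets, 34945 had exactly 1 symbol in the platform annotation, covering 18193 genes. Symbols were checked by Entrez identifier against GRCm38.p6 (34741 matched, 0 changed). The brightest probe set represented each gene, and genes under the 40th percentile of mean log2(signal + 64), a signal of about 47, were left out.

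The 10916 genes left were fitted with limma 3.58.1 (R 4.3.3; lmFit and eBayes with trend, Benjamini-Hochberg adjustment, two-sided), without and with the replicate number as a block (4 and 2 residual degrees of freedom). Deviations from group means correlated at 0.62, 0.41 and 0.44 between same-numbered arrays across genes, all over 0.1, and same-numbered arrays were therefore treated as pairs. The crossed correlations of replicates 2 and 3 were 0.40 and 0.49, so those numbers were not told apart by this check. Pairs 2 and 3 therefore rest on the replicate numbers in the labels. The fit was tested on simulated data with large changes and an even spread, an easier case than these arrays. Pair changes are differences of log2 values within a number. Named in full were members passing a test, changing by at least 2-fold in any pair, or by 0.5 on average with the same sign in all pairs, plus Atf4, Ddit3, Asns, Slc7a11, Psat1 and Mthfd2; others are named for their role. The members and lists were chosen with earlier results of these data known, so they carry no list test. Promoter sequences are RefSeq's.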

Additional observations from a re-analysis of the deposited data

How the results depend on the processing

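Calls among the ATF4 genes stayed at 0 in limma under the replicate block, both other offsets, both other filters, quantile and median scaling, the mean over probe sets, array weights, no trend and each array left out, and came to 5 only without both replicate 1 arrays. Over all genes, 9 passed, 90 with the replicate block, 497 with array weights, 740 without both replicate 1 arrays, 1 without a filter, 1 with the filter at the 60th percentile, and 0 to 15 with an array left out (0 without control 2 or 3 or NCOR1-LYN 2 or 3, 15 without control 1). The block changed no call among the ATF4 genes. Array weights, which were low for control 1 and NCOR1-LYN 1 (0.161 and 0.209), turned the log2 fold changes of Ddit3 (−0.44), Trib3 (−0.11), Asns (−0.09), Psat1 (−0.09) and Lonp1 (−0.28), and leaving out both replicate 1 arrays also turned them (−0.49, −0.15, −0.12, −0.10 and −0.34). In all, 16 of the 31 tested members had the opposite sign without both replicate 1 arrays. With an array left out, fold changes ran from −0.93 to 0.37 for Atf5, −0.15 to 0.57 for Ddit3, −0.17 to 0.47 for Asns, −0.23 to 0.34 for Psat1, −0.01 to 0.70 for Slc7a11, −0.09 to 1.37 for Nupr1, −0.05 to 0.84 for Gpt2 and −0.08 to 0.50 for Lonp1. The cause was not tested. The members' median over the 34 with a probe set, 0.13, ran from −0.08 to 0.26 with an array left out.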

Other observations

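Slc7a11 is shared as a target with the glutathione and NRF2 response. Genes of that response gave 13 tested genes with a median log2 fold change of −0.08 (−0.19, −0.07 and 0.02 by pair). Limma called 0 of them without or with the replicate block (0.0824 and 0.824% of all genes). Hmox1, haem oxygenase, had signals of 389, 705 and 810 in controls and 344, 488 and 444 with NCOR1-LYN, lower in all 3 pairs (−0.15, −0.48 and −0.78). Without both replicate 1 arrays it was called lower (−0.63, limma adjusted p = 0.00643), as 1 of 13 in this list. Over all genes 6.78% were called in that fit. Srxn1, which repairs oxidised peroxiredoxins, was lower in all 3 pairs too, with a log2 fold change of −0.41 ± 0.21 (limma adjusted p = 0.999, and 0.226 with the replicate block). Control 1 was the lowest array for 3 of these 13 genes, against 22.8% of all genes tested.

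Of the bZIP genes whose products can pair with ATF4, 13 were tested, Ddit3 among them, with a median of −0.08. Limma called 0 of them without or with the replicate block (0.0824 and 0.824% of all genes). Jun had signals of 79.1, 268 and 259 in controls and 286, 479 and 373 with NCOR1-LYN. It was higher in all 3 pairs (1.29, 0.71 and 0.44). The groups did not overlap for Jun (higher, 5.17% of all genes) and for Fosl2 (lower, 6.06% of all genes). Without both replicate 1 arrays limma called 1 of the 13 higher and 2 lower, against 3.16 and 3.62% of all genes. These were Jun (0.57, adjusted p = 0.0361), and Fosl1 and Ddit3 (−0.70 and −0.49, adjusted p = 0.0383 and 0.0202). Jdp2, a repressor that binds the same sites as JUN, had 827, 1779 and 1771 in controls and 1620, 2039 and 2358 with NCOR1-LYN. In Jun and Jdp2, as in most ATF4 genes, control 1 was the lowest array, while pairs 2 and 3 also were higher (0.19 and 0.40 for Jdp2). Of the 13, control 1 was the lowest array for 4 (22.8% of all genes) and the highest for 6 (3358 of 10916). Jun and Jdp2 were the 2 higher in all 3 pairs (15.9% of all genes), and Junb, Fos and Fosl2 the 3 lower in all (18.9%).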
